A study of Bos taurus with 6 samples.

Results

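The bovine miRNA entries with late catalogue numbers, from miR-6119 to miR-7865, were examined in cumulus cells. The members were the rows of the deposited count table named bta-miR- with a number in this range, any letter or arm, with miR-6528 left out. There were 44 such entries among 1055 in the table and 890 that carry a miRBase name, and they name 41 different mature miRNAs. The numbers fall in runs: 9 entries belong to miR-6119 to miR-6123, 25 to miR-6516 to miR-6536, 1 to miR-7691 and 9 to miR-7857 to miR-7865. Cumulus cells are somatic cells of the ovarian follicle that enclose the oocyte, with which they form the cumulus-oocyte complex (COC). Small RNA was sequenced from 6 pooled samples of bovine cumulus pieces, taken after in vitro maturation of COCs from slaughterhouse ovaries in medium with serum and follicle stimulating hormone. In 3 pools, Samples A, B and C, the oocytes had not cleaved after exposure to sperm, and in 3 pools, Samples D, E and F, they had developed into blastocysts. Since each pool mixes the cells of several COCs, and no source used here says whether the pools of 1 group were collected apart, p-values measure only the spread between these pools.

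MicroRNAs are short RNAs that are cut from a hairpin precursor by the enzymes Drosha and Dicer and that guide Argonaute proteins to partly complementary messenger RNAs, most often lowering translation and stability. One arm of the hairpin, named 5p or 3p, is usually kept and the other degraded. The miRBase catalogue numbers miRNAs in the order of their submission, so that the broadly conserved and abundant miRNAs mostly have low numbers, while entries with high numbers were added later, many from deep sequencing of 1 species. Many miRNA precursors lie within other genes and may be transcribed with them.

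Library totals ranged from 2776256 to 8139237 counts, 2.93 times apart. CPM are counts scaled to a library total of 1 M. In the fixed lists of markers, the cumulus and granulosa list (miR-202, miR-21-5p, miR-132 and miR-224) summed to 408045 to 622708 CPM. Nearly all of this sum was miR-21-5p, at a mean of 500898 CPM, against 7046 for miR-202, 1691 for miR-224 and 682 for miR-132. The blood list summed to 0.636 to 4.68 CPM, with miR-144 and miR-223 at 0. The oocyte, embryo and germ cell list summed to 0 to 8.45 CPM, with miR-302d and miR-367 at 0. Samples B and E stood apart in a list of 7 entries (miR-2887, miR-2904, miR-2411-3p and miR-2332) that was chosen because earlier results of these data had shown them high there. This list summed to 1985 CPM in Sample B, 756 CPM in Sample E and 47.6 to 103 CPM in the other samples. The larger differences between the fates are therefore also given without these libraries. PCR copies were not marked, so all intervals cover counting error only.

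Most of the later entries had at least 1 count in some library, but few of them were abundant. At least 1 count in any library was found for 34 of the 44 entries (77.3%, Wilson 95% interval 63.0% to 87.2%), and 20 (45.5%) had a count in all 6 libraries. More than 10 counts in any library were found for 20 entries (45.5%), and more than 10 in every library for 11 (25.0%). More than 50 counts in every library were found for 5 entries (11.4%). Shares of the 846 other miRBase entries were near these at the lower cutoffs. Of them, 70.3% had a count in any library, 42.1% a count in all 6 and 45.3% more than 10 in any library. More than 10 counts in every library were found for 31.7% of them, and more than 50 for 23.9%. The 34 detected entries included 22 of the 25 numbered miR-6516 to miR-6536, 6 of 9 numbered miR-6119 to miR-6123 and 6 of 9 numbered miR-7857 to miR-7865, while miR-7691 had 0 counts.

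The share with any count lay above that of the other entries of mostly bovine numbering and below that of the early entries. Of the entries numbered below 1000 or named let-7, 85.2% of 391 had a count in any library and 55.2% had more than 10 in all 6. For miR-2284 and miR-2285, a large family of ruminants, these shares were 72.5% and 8.82% of 102 entries, and for the entries numbered miR-2286 to miR-2904 they were 50.9% and 10.2% of 275. Among the remaining 78 miRBase entries, they were 61.5% and 19.2%. At more than 50 counts in any library, the later entries (25.0%) lay slightly below these remaining entries (25.6%). No test was run on these shares, since entries of a family or hairpin are not independent. With every library thinned to 2776256 counts, the later entries kept 34 detected and 10 with more than 10 counts in all 6 libraries. Their share with more than 10 counts in any library fell to 38.6%, against 40.5% of the 846 other miRBase entries. At more than 50 counts in any library it fell to 18.2%, against 28.5%.

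**Figure D1:**
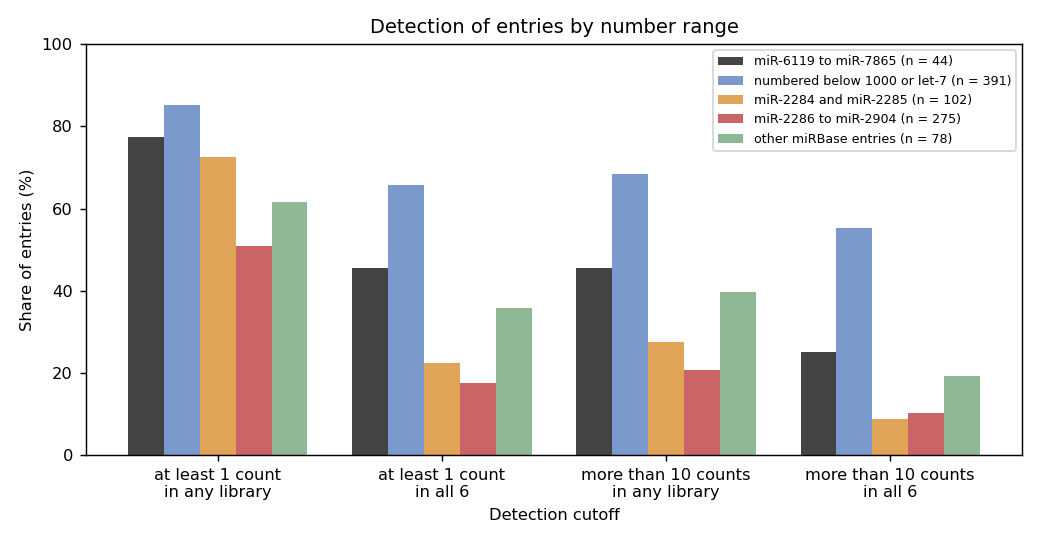
Share of miRBase entries (y axis, percent) at 4 detection cutoffs (x axis) in the deposited counts, for the later entries in dark grey and 4 other ranges of numbers in colour. The dark bars stand at 77.3%, 45.5%, 45.5% and 25.0%, below the bars of the early entries at every cutoff and above those of the other 3 ranges.

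Each library held between 26 and 30 of the 44 entries. The number with at least 1 count was 26, 30 and 30 for the not-cleaved Samples A, B and C, and 30, 29 and 27 for the blastocyst Samples D, E and F. The deepest pair of libraries, Samples A and D, thus held 26 and 30, and the shallowest, Sample B, held 30. The not-cleaved mean of 28.7 ± 2.31 (SD, n = 3) was the same as the blastocyst mean of 28.7 ± 1.53 (SD, n = 3) at these unequal depths, with overlapping groups. A two-sided exact permutation test gave p = 1, and with 3 pools against 3 this test cannot reach a p under 0.1. With every library thinned to the depth of Sample B, the means were 28 ± 2.65 and 26 ± 1 entries (SD, n = 3; exact permutation test, p = 0.4), and with 1 library left out the unthinned difference, blastocyst minus not-cleaved, ran from -1.33 to 0.833 entries. The number above 10 counts was 19, 15 and 14 for Samples A, B and C and 16, 13 and 16 for Samples D, E and F (exact permutation test, p = 0.8).

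The 44 entries together took a small share of the counts. Their share was 0.120%, 0.127% and 0.0947% for Samples A, B and C, which are the not-cleaved pools, and 0.115%, 0.0979% and 0.114% for Samples D, E and F, the blastocyst pools. Samples C and E were lowest, so each group held a low library, and the groups overlapped. The Wilson 95% interval of the share in Sample B, the shallowest library, ran from 0.122% to 0.131%. The group means were 0.114% ± 0.0168 (SD, n = 3) for not-cleaved and 0.109% ± 0.00952 (SD, n = 3) for blastocyst samples, and an exact permutation test, two-sided, gave p = 0.6. The difference of -0.00478 percentage points, blastocyst minus not-cleaved, was smaller than the spread within a group, and its sign turned without Sample B (0.00166), without Sample E (0.000705) and without both (0.00715). The sign also turned when miR-21-5p, the most abundant miRNA of the table, was left out of the total (0.0380, with shares of 0.208% and 0.246%) and when the total was scaled by its TMM factor, which corrects for the composition of the library (0.00374). Over the 6 libraries the share had a coefficient of variation (CV, the SD as a percent of the mean) of 11.2%.

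A single arm, miR-6120-3p, carried 52.0% of the members' counts over all libraries. By library it gave 47.3%, 53.1% and 47.3% of the members' counts in Samples A, B and C and 59.7%, 44.8% and 54.7% in Samples D, E and F. With miR-6529a and miR-6119-5p it made up 80.2% to 84.2% of the members' counts in every library. The 15 entries that passed the expression filter of edgeR's filterByExpr, which asks for enough counts in at least as many libraries as a group holds, had 33704 of the 34045 counts of the members (99.0%). Of the other 29 entries, 19 had counts and 10 had none.

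RefSeq's gene table for the assembly ARS-UCD2.0 was used to place the precursors. Of 37 hairpin names, 36 were matched and 35 were placed on a chromosome. The span of a protein-coding gene held 29 of the 35, and that of only a long non-coding RNA gene held 4. Of the 14 hairpins whose entries passed the filter, 12 lay within a protein-coding gene. The table gives neither strand nor exons, so whether they are transcribed in the direction of the host gene is not stated here. Chromosome positions are not given, because no source used here names the build used for counting.

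miR-6120-3p, the most abundant entry, has its precursor within CSNK1G2, a gene for a casein kinase of the gamma type. Its level was 566, 672 and 448 CPM in Samples A, B and C and 686, 439 and 623 CPM in Samples D, E and F. Samples C and E were the low ones, and the groups overlapped. Its mean of 573 CPM ranked 72 among the 890 miRBase entries. The means of the groups were 562 ± 112 (SD, n = 3) and 583 ± 128 (SD, n = 3) CPM, not-cleaved first. Its CV of 18.9% was 9.39 times what counting alone would give at this level.

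miR-6529a lies within GSK3B, which encodes a glycogen synthase kinase that acts in Wnt and insulin signaling. It was at 295, 209 and 169 CPM in Samples A, B and C and at 128, 221 and 196 CPM in Samples D, E and F. Sample A was highest and Sample D lowest, and the groups overlapped. The precursor of miR-6529b overlaps that of miR-6529a in the gene table. miR-6529b had 0 counts in all 6 libraries while miR-6529a had 6179 in all. By counting error alone, a sum of 0 allows up to 3 counts over all libraries, which would put miR-6529a at least 2060-fold higher. Where reads fit overlapping hairpins, no source used here says how the authors assigned them, so this bound may not hold.

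miR-6119-5p is an arm of a hairpin within RPL39, a gene for a protein of the large ribosomal subunit. It was at 147, 177 and 157 CPM in Samples A, B and C and at 141, 125 and 140 CPM in Samples D, E and F. Every blastocyst sample lay below every not-cleaved sample on the library total, but with TMM scaling the groups overlapped. The spread was small, with a CV of 11.9%, the 16th lowest among the 358 entries of the table that passed the filter.

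The arms of this hairpin were unequal to a similar degree in all pools. miR-6119-3p had 24, 11 and 11 counts in Samples A, B and C and 28, 8 and 12 in Samples D, E and F. The 5p arm made up 97.6% (Sample D) to 98.4% (Sample C) of the hairpin's counts, and 97.9% over all libraries (Wilson 95% interval 97.5% to 98.3%). The log2 of the ratio of 5p to 3p was 5.67 ± 0.23 (SD, n = 3) for not-cleaved pools and 5.53 ± 0.23 (SD, n = 3) for blastocyst pools, and the exact permutation test (two-sided) gave p = 0.5. For miR-6120 the 3p arm dominated, with 17697 counts against 25 of the 5p arm over all libraries, or 99.9%. The 5p arm of miR-6120 had 12 counts in Sample A, 5 in Sample D and at most 3 in the other samples, with 0 in Sample B. For miR-6121, within PLXNA2, a gene for a semaphorin receptor, 20 counts were on the 3p arm and 0 on the 5p arm. Both arms of miR-6122, within REL, a gene for an NF-kappa-B subunit, had 0 counts in all 6 libraries.

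miR-6517 and miR-7859 were steady at lower levels. miR-6517, within DNAAF2, a gene for an assembly factor of ciliary dynein arms, was at 70.1, 58.4 and 50.5 CPM in Samples A, B and C and at 73.6, 70.1 and 64.0 CPM in Samples D, E and F. Samples C and B were lowest and the groups overlapped through Sample A. miR-7859, within PTGR2, a gene for a prostaglandin reductase, was at 28.7, 35.3 and 29.7 CPM in not-cleaved and at 20.9, 34.4 and 27.7 CPM in blastocyst samples. Sample D was lowest, and Samples B and E were highest, so both groups were represented at the upper end. Their CVs were 13.5% and 17.7%.

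**Figure D2:**
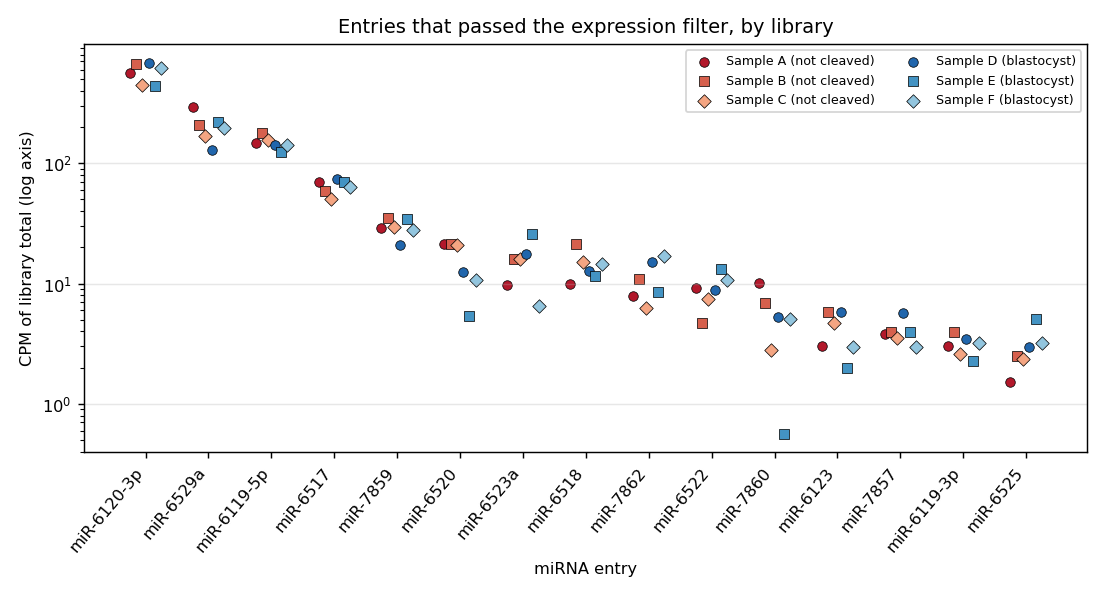
CPM of the library total (y axis, log scale) of the 15 entries that passed the expression filter (x axis, by falling mean), with 1 point per library, red for not-cleaved and blue for blastocyst samples. miR-6120-3p is at the left between 439 and 686 CPM. The 3 red points of miR-6520 lie together above its 3 blue points, and miR-7860 falls to 0.563 CPM in Sample E.

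miR-6520, within EP400, a gene for a chromatin remodeling factor, had the lowest p of the members tested. Its level was 21.1, 21.3 and 20.8 CPM in Samples A, B and C, against 12.5, 5.35 and 10.8 CPM in Samples D, E and F. The not-cleaved samples were within a narrow range, all above the blastocyst samples, and Sample E was the lowest. The counts behind these values were 166, 59 and 89 in not-cleaved and 102, 19 and 40 in blastocyst samples. Not-cleaved pools averaged 21.1 ± 0.226 CPM (SD, n = 3) and blastocyst pools 9.54 ± 3.74 CPM (SD, n = 3), and the log2 fold change of blastocyst over not-cleaved was -1.03 (SE 0.40). On library totals the CV over the not-cleaved pools, 1.08%, was the lowest of all 358 entries tested, while counting alone gives 12.3% at the mean level of miR-6520, so the SD of this group is smaller than its counting error. In TMM-scaled CPM the not-cleaved pools averaged 20.5 ± 2.46 (SD, n = 3). The unadjusted p was 0.0378 and the adjusted p 0.993 in edgeR's quasi-likelihood test, so the difference did not pass the threshold of 0.05. Without Sample E the log2 fold change was -0.73, with an unadjusted p of 0.0836 and an adjusted p of 0.809 in edgeR, and without Samples B and E it was -0.82. Over all settings tried, edgeR or DESeq2 gave unadjusted p-values from 0.0219 to 0.103 and adjusted p-values of 0.704 or more.

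On library totals, 2 of the summed marker lists did not overlap between the groups, in opposite directions, and the others overlapped. Of all single entries tested, 9.22% did not overlap on library totals. The list sums were not scaled by TMM factors. The list of epithelial miRNAs (5 entries of the miR-200 family, none at 0) was lower in blastocyst samples. It summed to 212 to 245 CPM in not-cleaved and 152 to 208 CPM in blastocyst samples. The gap was narrow, with 212 CPM in Sample C against 208 CPM in Sample E, and may not hold with TMM scaling. The striated muscle list (6 entries, with miR-133b at 0) was higher in blastocyst samples, at 9.95 to 43.7 CPM against 4.45 to 4.91 CPM. Its highest value was that of Sample D, with 11.0 CPM in Sample E and 9.95 CPM in Sample F. miR-1 enters this sum more than once, with entries at means of 6.53 and 6.36 CPM. In pools, fewer cells of a type and less RNA per cell cannot be told apart, and the part of other cell types in the difference of miR-6520 was not tested.

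No later entry passed the threshold between the fates. Of the 15 tested, 0 had an adjusted p under 0.05 in edgeR's quasi-likelihood test, where the background over all 358 entries tested was 0%, and DESeq2 and edgeR's exact test called 0 as well. An unadjusted p under 0.05 was found for 1 of the 15, miR-6520, against a background of 2.79%. DESeq2 gave 1 of the 15, against 7 of all 358 entries, and the exact test gave 1 of the 15, against 4 of 358. The groups did not overlap in TMM-scaled CPM for 3 of the 15 (miR-6520, miR-6522 and miR-6525), against 9.5% of all entries. On library totals they did not overlap for 3 as well (miR-6520, miR-6119-5p and miR-6525), against 9.22% of all entries. The median log2 fold change was 0.04 over the members tested, with 8 higher and 7 lower point estimates, and -0.02 over all entries tested, with 165 higher and 193 lower. Upper-quartile factors moved the median of all entries to 0.32, and 13 of the 15 then had higher and 2 lower point estimates. Library totals alone moved it to -0.13, with 7 higher and 8 lower.

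Point estimates were higher in blastocyst samples for miR-6525, miR-7862 and miR-6522, at low counts. miR-6525, within FASTK, a gene for a kinase-like protein described in apoptosis, had 12, 7 and 10 counts in Samples A, B and C and 24, 18 and 12 in Samples D, E and F, or 1.53 to 2.52 against 2.95 to 5.07 CPM. Its log2 fold change was 0.91 (SE 0.49), and 0.70 without Samples B and E. miR-7862, within ANKRD6, a gene of the Wnt pathway, was at 7.88, 10.8 and 6.31 CPM in not-cleaved and at 15.0, 8.45 and 16.9 CPM in blastocyst samples. Here Samples D and F were high and Sample E lay among the not-cleaved samples. The log2 fold change was 0.83 (SE 0.39), with an unadjusted p of 0.0717 and an adjusted p of 0.993 in edgeR. The unadjusted p of miR-7862 lay under 0.05 in edgeR without Sample E (log2 fold change 1.09, unadjusted p = 0.0232, adjusted p = 0.809), without Samples B and E (1.19, unadjusted p = 0.0357, adjusted p = 0.977), with upper-quartile factors (1.09, unadjusted p = 0.0243, adjusted p = 0.704) and with the stricter filter (0.83, unadjusted p = 0.0476, adjusted p = 0.962). miR-6522, within NPAS3, a gene for a transcription factor of the brain, was at 9.15, 4.68 and 7.48 CPM in not-cleaved and at 8.85, 13.2 and 10.8 CPM in blastocyst samples. Samples A and D were close, and the groups overlapped on library totals but not with TMM scaling. The log2 fold change of miR-6522 was 0.67 (SE 0.42), and it was 0.40 without Sample B and 0.26 without Samples B and E.

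**Figure D3:**
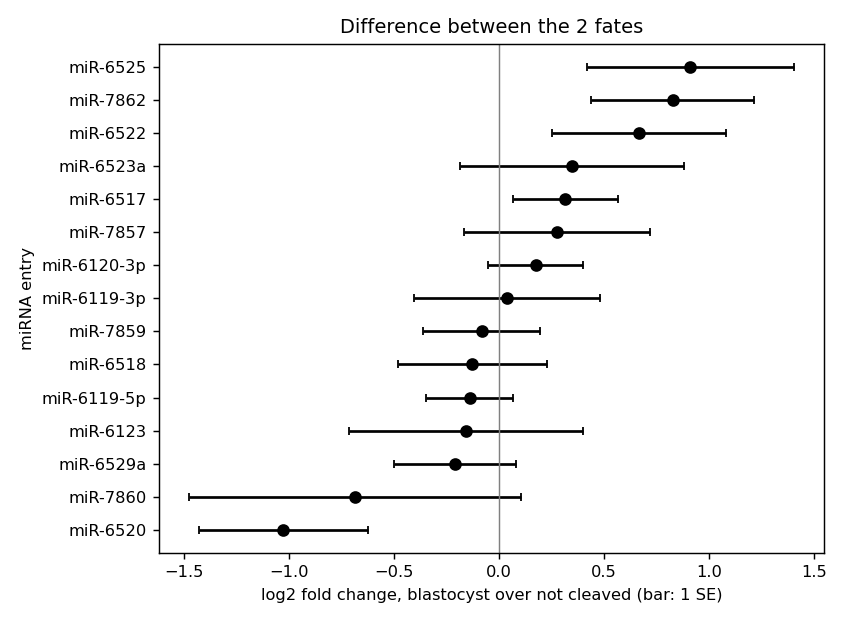
Log2 fold change of blastocyst over not-cleaved samples from edgeR (x axis) for the 15 entries that passed the filter (y axis), with bars of 1 SE, 3 pools a group. Points run from -1.03 for miR-6520 to 0.91 for miR-6525, 8 lie above 0 and 7 below, and none had an adjusted p under 0.05.

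Of the 15 entries that passed the filter, 10 had log2 fold changes within 1 SE of 0. Besides miR-6120-3p, miR-6529a, both arms of miR-6119 and miR-7859, described above, they are miR-6523a, within the autophagy gene EPG5, miR-6518, within ADM, which encodes the vasodilating peptide adrenomedullin, miR-7860, within COG3, a gene for a subunit of a Golgi tethering complex, miR-6123 and miR-7857. miR-6523a was at 9.66, 15.8 and 16.1 CPM in Samples A, B and C and at 17.4, 25.9 and 6.45 CPM in Samples D, E and F. The lowest and the highest library were both blastocyst samples. The precursor of miR-6523b overlaps that of miR-6523a, and miR-6523b had 0 counts against 447 of miR-6523a over all libraries. Here too, how reads that fit both were assigned is not known. miR-6518 was at 9.92, 21.3 and 15.0 CPM in not-cleaved and at 12.7, 11.5 and 14.5 CPM in blastocyst samples, so that the lowest and the highest library were both not-cleaved.

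miR-7860 had the widest spread of the members that passed the filter. It was at 10.04, 6.84 and 2.81 CPM in Samples A, B and C and at 5.28, 0.563 and 5.11 CPM in Samples D, E and F. Sample E stood far below the others with 2 counts (exact Poisson 95% interval 0.242 to 7.22 counts), 3.23 log2 units under the median of the other samples. Its log2 fold change of -0.69 (SE 0.79) was -0.20 without Sample E. The CV was 64.0%, and the ratio of the highest to the lowest library was 17.8. The precursor of miR-6123 lies within a long non-coding RNA gene and within 10 kb of that of miR-296. miR-6123 had 24, 16 and 20 counts in not-cleaved and 47, 7 and 11 in blastocyst samples. Scaled to the library totals, it was at 3.05, 5.76 and 4.68 CPM and at 5.77, 1.97 and 2.96 CPM. Its neighbour miR-296-3p had 419, 222 and 387 counts and 455, 279 and 301 counts in the same libraries. miR-7857, with 2 loci in RefSeq and 1 entry in the count table, had 30, 11 and 15 counts and 46, 14 and 11 counts. Scaled to the library totals, these were 3.81, 3.96 and 3.51 CPM and 5.65, 3.94 and 2.96 CPM.

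The later entries were about as steady over the libraries as the table as a whole. The median CV of the 15 was 27.96%, from 11.9% for miR-6119-5p to 64.0% for miR-7860, against a median of 29.3% over all 358 entries tested, and 8 of the 15 lay under that median. The 15 were less abundant, with a median of the mean CPM of 14.1 against 39.2. Counting alone gives a CV of 12.8% at the median of the members and of 7.70% at that of all entries. The CV was 2.25 times the counting value in the median member and 3.87 times in the median of all entries. For miR-7857 and miR-6119-3p it was 0.942 and 0.723 times the counting value, so no spread between pools beyond counting error was detectable at this depth. Within groups, the median CV of the 15 was 24.9% over not-cleaved and 26.6% over blastocyst samples, where all entries had 26.0% and 28.8%. Because passing the filter requires counts in at least a group's number of libraries, these medians do not describe the 29 members that did not pass.

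**Figure D4:**
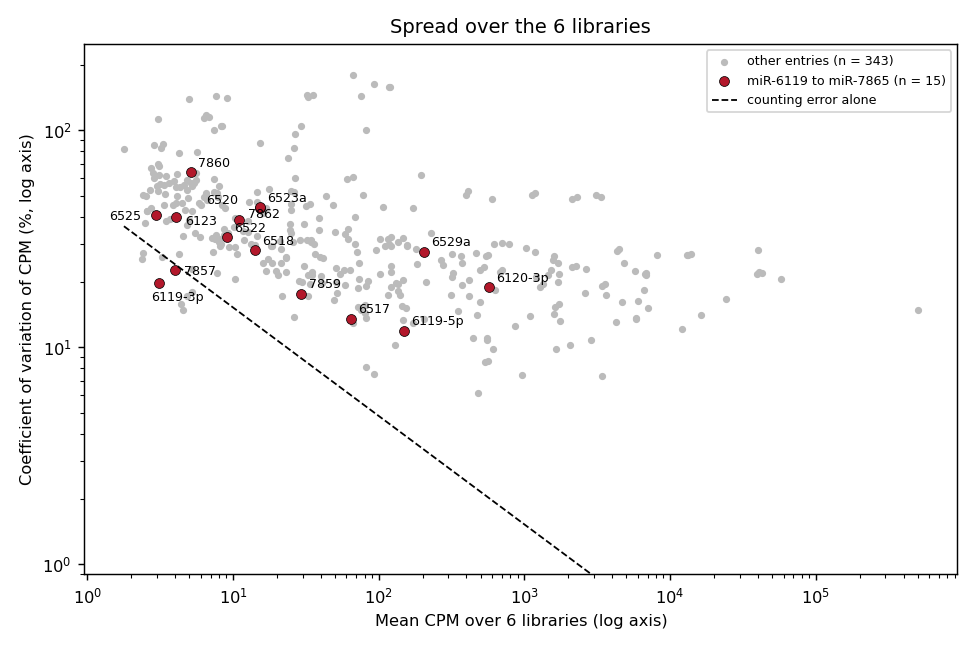
CV of CPM over the 6 libraries (y axis, percent, log scale) against mean CPM (x axis, log scale) for the 358 entries that passed the filter, with the 15 later entries in red and the other 343 in grey. The dashed line is the CV that counting error alone gives. miR-7857 and miR-6119-3p lie under the line, miR-6120-3p lies far above it, and miR-7860 is the highest red point.

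Among the 15 entries, Sample E was the lowest library for 6 and Sample B the highest for 5. The median log2 difference of the 15 from the median of the other samples was 0.30 in Sample B, 0.14 in Sample D, -0.048 in Sample A, -0.067 in Sample F, -0.24 in Sample E and -0.29 in Sample C, so by this median Sample C lay lowest. In Sample E, 3 entries were more than 1 log2 unit low, which are miR-7860 (-3.23), miR-6520 (-1.96) and miR-6123 (-1.25), and 1 entry, miR-6525, was more than 1 log2 unit high (1.01). In Sample F, miR-6523a was low (-1.32) and miR-7862 high (1.003). In Samples A, B, C and D, no entry of the 15 differed by more than 1 log2 unit.

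Entries below the filter had scattered counts. Of the 19 with any count, 5 exceeded 10 counts in a library. miR-6524, within PDCD4, a gene that is a known target of miR-21, had 33, 5 and 3 counts in Samples A, B and C and 14, 2 and 7 in Samples D, E and F. miR-6531, outside any annotated gene, had 15, 12 and 7 counts in not-cleaved and 2, 14 and 0 in blastocyst samples. Scaled to the library totals, it was highest in Samples B (4.32 CPM) and E (3.94 CPM), with 1.91 CPM in Sample A. Within the blastocyst group, Sample E was thus high and Samples D and F were low, and the 0 counts in Sample F allow up to 0.806 CPM. miR-6516, within a long non-coding RNA gene, had 14, 9 and 2 counts and 5, 2 and 2 counts. Its highest CPM was that of Sample B (3.24), with 1.78 in Sample A and 0.468 to 0.614 in the others. miR-6530, within MARCHF6, a gene for a ubiquitin ligase, had 0, 2 and 5 counts and 0, 1 and 12 counts, with 0 in the deepest libraries, Samples A and D. The fifth was miR-6120-5p, given above.

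The other 14 of these entries had at most 9 counts in a library, the highest being miR-6121-3p in Sample D. They are miR-6519, miR-6121-3p, the 3 entries of miR-6526, miR-7865, miR-6535, both entries of miR-6536, miR-6533, miR-6534, miR-7863, miR-6527 and miR-6532. The first and second entry of miR-6526 had nearly equal counts, 2, 1 and 6 against 2, 1 and 5 in Samples A, B and C and 6, 2 and 1 against 6, 1 and 2 in Samples D, E and F. Counts of these copies, and of the overlapping loci of miR-6536 within REV3L, a DNA polymerase gene, are uncertain, since how reads were divided between them was not tested. miR-6534 had 2 counts in Sample B, 4 in Sample C and 0 in the other 4 libraries, and had the lowest p of the 19 when no filter was applied (unadjusted p = 0.0751, adjusted p = 0.868 in edgeR).

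The 10 entries with 0 counts in all 6 libraries were miR-6529b, miR-6523b, both arms of miR-6122, miR-6121-5p, miR-6521, miR-7858, miR-7861, miR-7864 and miR-7691. A count of 0 allows up to 3 counts, which is 0.369 CPM in Sample D, the deepest library, and 1.08 CPM in Sample B, the shallowest. Over the 6 libraries together the limit is 0.0989 CPM.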

How the data were processed

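Libraries were prepared from total RNA of 6 cumulus pools with a NEBNext kit, selected for fragments of miRNA size and run on an Illumina NextSeq sequencer. As deposited by the authors, the values are raw whole-number counts for each miRBase or putative entry. No source used here gives the aligner, the counter or the build. Column names gave the groups. The authors' own comparison of the groups (log2 fold changes, log CPM, p-values, FDR values and group means) and their 50 log2 values for a heat map were deposited too and were not used. The members and lists were chosen with earlier results of these data known.

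Software was R 4.3.3 (edgeR 4.0.16, limma 3.58.1, DESeq2 1.42.0) and Python 3.11.15 (pandas 2.3.3, numpy 2.4.6, matplotlib 3.10.9, scipy 1.17.1). The whole table was filtered with filterByExpr, which left 358 entries including 15 members, TMM factors were computed, and edgeR's quasi-likelihood test was applied with Benjamini-Hochberg adjustment over all 358, with a threshold of 0.05. SEs were derived from the log2 fold change and its F statistic. The code was tested on simulated data. Values per library were compared by exact permutation tests. Entries named with values were those that passed the filter or had more than 10 counts in a library. Alternatives were DESeq2, upper-quartile factors, totals without factors, no filter and a stricter one, the exact test of edgeR, merged entries, a table without miR-21-5p, thinning, and leaving out each library. Leaving out Samples B and E together was chosen after seeing the data. Depth ran from 2776256 to 8139237 counts per library.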

Additional observations from a re-analysis of the deposited data

How the results depend on the processing

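Over 15 alternatives no later entry had an adjusted p under 0.05, and the same held for all entries tested. An unadjusted p under 0.05 was found for 0 to 2 later entries. Over all entries tested, the lowest number was 4, of 358 in edgeR's exact test and of 366 without Sample C. The highest was 17, of 368 without Sample E and of 379 without Samples B and E. The log2 fold change kept its sign in every alternative that tested it for 7 of the 15 entries (miR-6120-3p, miR-6517, miR-6520, miR-7862, miR-6522, miR-7860 and miR-6525). Upper-quartile factors turned it for miR-6529a (0.22), miR-6119-5p (0.19), miR-7859 (0.32), miR-6518 (0.18) and miR-6123 (0.056), where the median of all entries moved to 0.32. Library totals alone turned it for miR-6119-3p (-0.079), and leaving out Samples B and E for miR-6523a (-0.079), miR-6518 (0.13) and miR-6123 (0.22). With 1 library left out it ran from -0.35 to 0.067 for miR-6529a, -0.24 to 0.074 for miR-7859, -0.066 to 0.74 for miR-6523a, -0.35 to 0.061 for miR-6518, -0.050 to 0.48 for miR-7857, -0.75 to 0.14 for miR-6123 and -0.12 to 0.21 for miR-6119-3p. The difference in summed share was -0.0143 to 0.00166 points with 1 library left out, 0.0380 with miR-21-5p out of the total, 0.00374 with TMM scaling and 0.00715 without Samples B and E. The difference in entries above 10 counts was -2 to 0.5 with 1 library left out. The causes were not tested. Detection rate, median CV and the arm ratio of miR-6119 kept their direction or moved less than their spread. The merged-entry fit bears on no tested member, since none has several entries. No paired analysis was possible because the columns carry no replicate numbers. Depth limits the 19 entries with few counts most.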
